A study of Mus musculus with 18 samples.

Results

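The genes examined here were 36 transcription factors that mark regions of the hypothalamus or of the forebrain tissue around it, taken by symbol from the 56980 features of the deposited gene table. Each symbol matched 1 feature. The RNA came from hypothalami of male C57BL/6JGpt mice that were 7 months old per the deposited sample table, with 6 mice in each of 3 groups. Mice with diet-induced obesity (DIO) were put on fat-rich food when 6 weeks old and stayed on it for 16 weeks or longer. They received TN-783, which inhibits NLRP3, a sensor protein of the inflammasome, at 50 mg/kg by oral gavage 2 times a day, or its vehicle by the same route and schedule. Both DIO groups were first accustomed to vehicle gavage for 14 days. Dosing lasted 29 days per the labels and 28 days per the deposited sample table. The lean mice were wild-type animals of the same strain, sex and age on chow and received no dose, and the labels do not say whether they were gavaged during the accustoming period. All mice were wild type, so no group carried a transgene. The hypothalamus was sampled whole by microdissection, and the labels give no borders for it.

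Transcription factors with a homeodomain, T-box, forkhead or zinc-finger domain divide the embryonic hypothalamus into regions, and many remain active in the adult neurons of the nuclei they helped to form. Their transcripts in bulk tissue therefore depend on which nuclei a dissection contains as well as on how active the genes are. In such tissue, fewer cells of a type and less RNA per cell cannot be told apart.

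Library totals were 1993528 to 3589795 counts in TN-783 mice, 1699712 to 2761474 in vehicle mice and 2070041 to 3695785 in lean mice. Of the 36 genes, 34 to 35 had a count in each TN-783 library, 34 to 35 in each vehicle library and 33 to 36 in each lean library. They summed to 653.1 to 812.4 CPM, the counts scaled to a common library size, in TN-783, 747.1 to 845.1 in vehicle and 744 to 926 in lean libraries. The libraries read the 3' end of transcripts, so that CPM counts transcripts without a correction for length. Lean replicate 6 stood apart, at -30.8 on the first principal component of all genes against 13.6 to 31.7 for the other lean libraries. TN-783 replicates 1 and 4 (-25.3 each) and vehicle replicates 6 (-32.6) and 3 (-23.3) lay at the same end as lean replicate 6. In lean replicate 6 the summed level of 3 oligodendrocyte markers (Mbp, Mog and Mobp) was 4450 CPM, against 1480 to 1900 CPM in the other lean libraries. The same sum was 4910 CPM in TN-783 replicate 4 and 5400 CPM in vehicle replicate 6. Mbp made up most of it, at 1130 to 3960 CPM over the lean libraries. Mobp was at 236 to 472 CPM in them and Mog at 8.69 to 13.4 CPM, a spread for Mog no larger than that of counting (variance ratio 0.801). Vehicle replicates 2 and 4 contained pituitary transcripts, with 7 pituitary markers summing to 3830 and 3420 CPM while the other 16 libraries had sums of at most 101 CPM. Results that rest on these 3 libraries are given with and without them.

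The 25 genes that passed the expression filter spanned a wide range of levels, and 11 were too low to test. The highest median CPM over 18 libraries was that of Six3 (96.8), followed by Zic1 (92.7), Rorb (82.2), Tcf7l2 (67.5), Prox1 (55.3) and Otp (50.9). The 11 untested genes, Vax1, Hmx3, Barhl1, Lmx1b, Foxa1, Dlx5, Lhx6, Zic2, Fezf2, Tbr1 and Neurod6, had medians of 0 to 3.65 CPM. They are described by their counts and CPM, and Neurod6 also by fits with fewer libraries, in which it passed the filter.

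**Figure D1:**
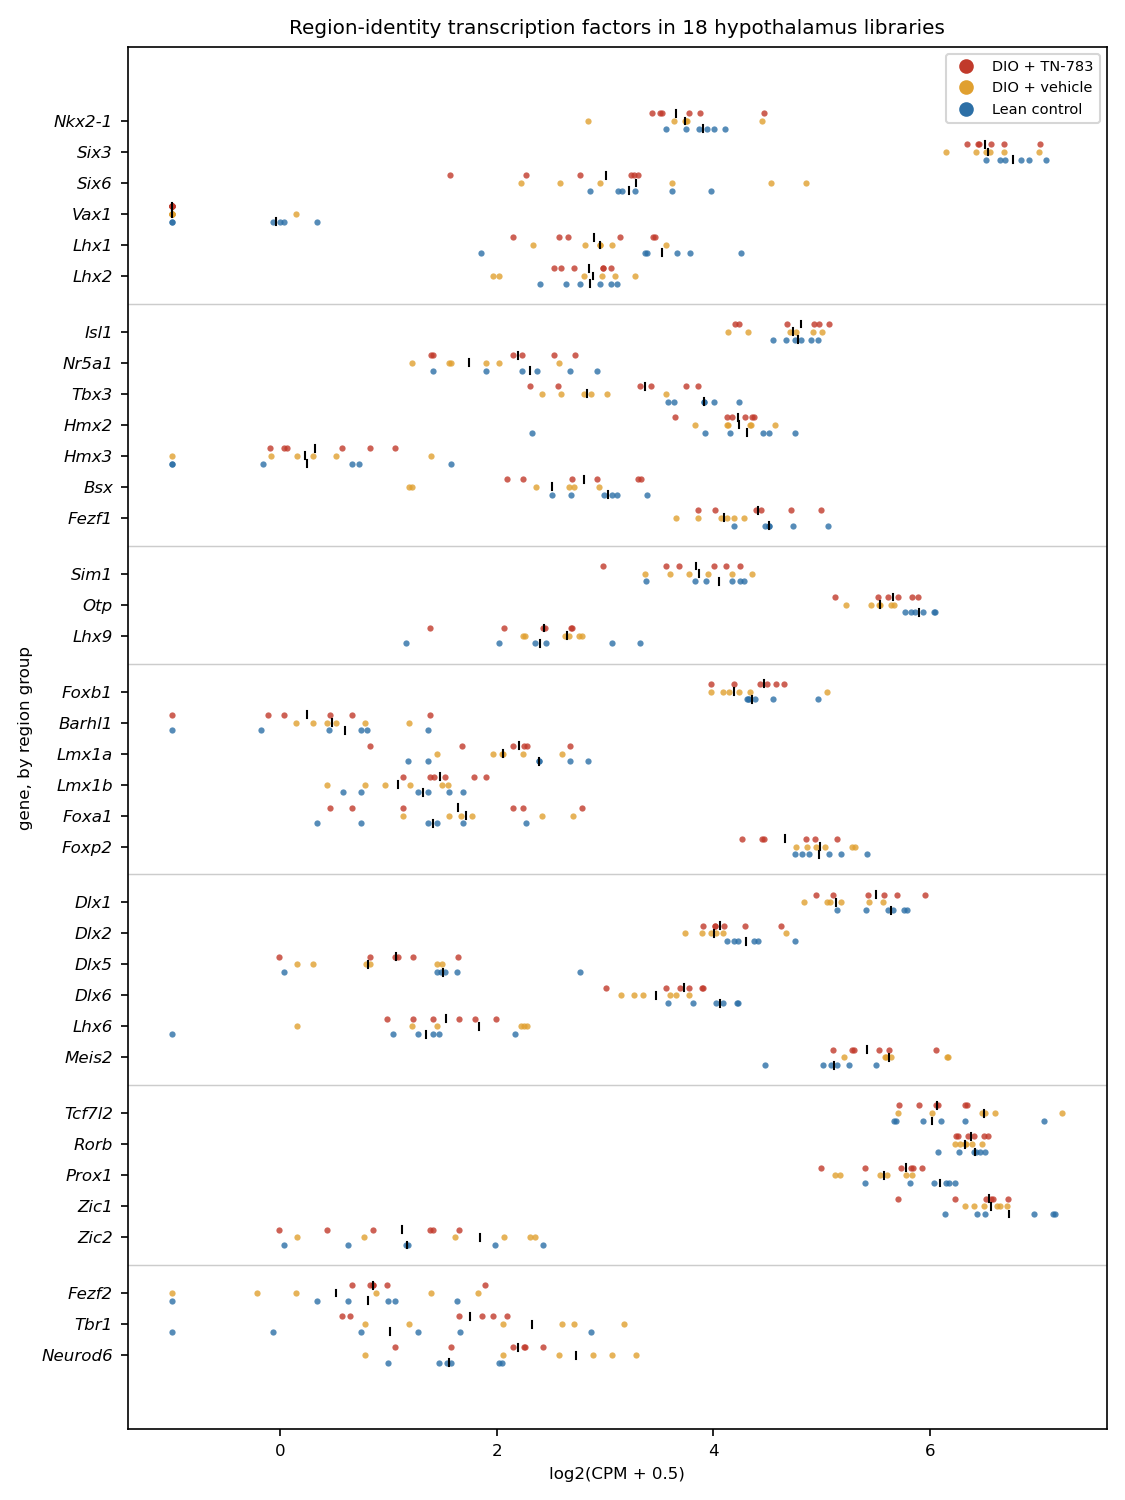
Levels of the 36 genes in each library, as log2(CPM + 0.5) on the x axis, with genes grouped by region on the y axis. Each point is 1 library, with TN-783 mice above vehicle mice above lean mice within a gene, and the black mark is the group median. Tbx3 and Otp are the 2 genes whose vehicle points all lie left of the lean points.

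Among the genes of the whole hypothalamus and the suprachiasmatic nucleus, the seat of the circadian clock, Six3 and Nkx2-1 were present in every library. Six3, a homeobox gene of the anterior forebrain and the eye, was at 80.7 to 129 CPM in TN-783 mice, 70.4 to 128 in vehicle mice and 91.3 to 134 in lean mice. Nkx2-1, required to form the ventral hypothalamus, was at 10.3 to 21.6 CPM in TN-783 mice, 6.65 to 21.4 in vehicle mice and 11.3 to 16.7 in lean mice. The 3 groups overlapped for both genes. Lhx1, which acts in the suprachiasmatic nucleus, had lowest, median and highest values of 3.94, 7.07 and 10.5 CPM in TN-783 mice, 4.53, 7.24 and 11.3 in vehicle mice and 3.12, 11.1 and 18.6 in lean mice. Its lowest value of all was in lean replicate 6 and its highest in lean replicate 4. Lhx2, which shapes the forebrain and the eye and marks tanycytes, averaged 6.57 ± 1.09 CPM in TN-783, 6.33 ± 2.38 in vehicle and 6.67 ± 1.3 in lean mice (SD, n = 6). Vax1, a gene of the ventral forebrain, had 0 counts over the 6 TN-783 libraries, which allows up to 0.211 CPM over the group by counting error, with 1 count in vehicle and 6 in lean mice.

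Six6, which is active in the suprachiasmatic nucleus and is also known from the developing eye and the pituitary, was the most uneven of this group. Its lowest, median and highest values were 2.47, 7.65 and 9.35 CPM in TN-783 mice, 4.17, 9.5 and 28.4 in vehicle mice and 6.77, 8.82 and 15.3 in lean mice. The highest pair of values, 28.4 and 22.6 CPM, belonged to vehicle replicates 2 and 4, the libraries with pituitary transcripts. The remaining vehicle libraries lay between 4.17 and 11.8 CPM, within the span of the other groups. In these 2 libraries prolactin (Prl) was at 1770 and 1270 CPM and at most 30.2 CPM elsewhere, the pituitary homeobox gene Pitx1 was at 17.1 and 28.5 CPM and at most 4.55 elsewhere, and Lhx3 was at 14.2 and 9.35 CPM and at most 2.33 elsewhere. Their part in the Six6 level was not tested.

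In the tuberal hypothalamus, which holds the arcuate, ventromedial and dorsomedial nuclei, Tbx3 showed the widest separation. Tbx3, a T-box gene that maintains the peptide identity of arcuate neurons, had lowest, median and highest values of 4.43, 9.85 and 14 CPM in TN-783 mice, 4.84, 6.64 and 11.3 in vehicle mice and 11.5, 14.6 and 18.3 in lean mice. All vehicle libraries lay below all lean libraries, while the TN-783 libraries reached into both ranges. Bsx, a homeobox gene of the arcuate neurons that make Agrp and Npy, had 3.78, 6.52 and 9.57 CPM in TN-783 mice, 1.78, 5.23 and 7.21 in vehicle mice and 5.21, 7.66 and 9.94 in lean mice. All 6 vehicle values were below the lean median, though the groups overlapped. Fezf1, a zinc-finger gene of the ventromedial nucleus, had 14, 20.8 and 31.3 CPM in TN-783 mice, 12.1, 16.7 and 18.9 in vehicle mice and 17.7, 22.4 and 32.9 in lean mice. The TN-783 and lean values of Fezf1 covered nearly the same span, and the vehicle values lay at its lower end.

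The other tuberal genes overlapped widely. Isl1, needed for arcuate Pomc neurons, averaged 25.9 ± 6.56 CPM in TN-783, 25 ± 5.67 in vehicle and 27 ± 2.86 in lean mice (SD, n = 6). Nr5a1, which encodes steroidogenic factor 1 and specifies the ventromedial nucleus, was low at 2.13 to 6.09 CPM in TN-783, 1.82 to 5.47 in vehicle and 2.16 to 7.11 in lean mice. Hmx2, which with Hmx3 directs the growth hormone-releasing hormone neurons of the arcuate nucleus, lay between 12 and 26.4 CPM in 17 of 18 libraries and at 4.52 CPM in lean replicate 5. Hmx3 had 14, 11 and 16 counts over the TN-783, vehicle and lean groups.

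Sim1 and Otp are both required for the neuroendocrine neurons of the paraventricular and supraoptic nuclei. Otp was the more abundant, with lowest, median and highest values of 34.4, 50.1 and 58.7 CPM in TN-783 mice, 36.8, 45.9 and 50.2 in vehicle mice and 54.1, 59.2 and 65.4 in lean mice. As for Tbx3, the vehicle and lean ranges did not touch, and the TN-783 range overlapped both. Sim1 was at 7.38 to 18.5 CPM in TN-783, 9.84 to 20 in vehicle and 9.89 to 19 in lean mice, with full overlap. Lhx9, a gene of the lateral hypothalamus linked to orexin neurons, was at 2.11 to 5.96 CPM in TN-783, 4.23 to 6.38 in vehicle and 1.73 to 9.53 in lean mice. TN-783 replicate 1 held the lowest Sim1 and the lowest Otp of all libraries, and its peptide transcripts of the same nuclei were low too, with vasopressin (Avp) at 7 CPM, oxytocin (Oxt) at 23.5 CPM and Trh at 11.8 CPM. In the other 17 libraries Avp was at 18.1 to 178 CPM, Oxt at 41.2 to 169 CPM and Trh at 13 to 60.3 CPM. TN-783 replicate 1 also had the lowest sum of all examined genes (653.1 CPM) and of general neuron markers (2670 CPM). It was lowest too for GABAergic genes (93.4 CPM) and for thalamic, septal and preoptic genes (236 CPM). Its mammillary and subthalamic sum was not low, at 74.8 CPM against 54.1 to 78 CPM in lean libraries. Nor was its tuberal sum, at 90.1 CPM against 71.9 to 108 CPM in lean libraries. What made Sim1 and Otp low there was not tested.

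Among the mammillary and subthalamic genes, Foxb1, the forkhead gene of the mammillary body, was at 15.3 to 24.6 CPM in TN-783 mice, 15.3 to 32.6 in vehicle mice and 19.3 to 30.7 in lean mice. Foxp2, a forkhead gene of the subthalamic nucleus and other brain regions, had lowest, median and highest values of 18.7, 25 and 34.9 CPM in TN-783 mice, 26.6, 31.3 and 39.1 in vehicle mice and 26.5, 31 and 42.4 in lean mice. The vehicle and lean ranges of Foxp2 nearly coincided, and 5 of 6 TN-783 libraries lay below the median of each. Lmx1a was low, at 1.28 to 5.9 CPM in TN-783, 2.23 to 5.56 in vehicle and 1.76 to 6.69 in lean mice. Barhl1, Lmx1b and Foxa1 did not pass the filter, with 11, 34 and 44 counts over the TN-783 group, 13, 21 and 43 over the vehicle group and 15, 28 and 34 over the lean group. Lmx1a, Lmx1b and Foxa1 also mark midbrain dopamine neurons, and 4 other markers of those neurons summed to 1.44 to 10.3 CPM in TN-783, 3.08 to 8.9 in vehicle and 4.48 to 10.9 in lean libraries.

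The Dlx genes, homeobox genes that drive the formation of GABAergic neurons, were detected throughout. Dlx1 had lowest, median and highest values of 30.4, 44.8 and 61.7 CPM in TN-783 mice, 28, 34.6 and 47 in vehicle mice and 34.9, 49.3 and 54.9 in lean mice. Dlx2, its neighbour on chromosome 2, was at 14.5 to 24.2 CPM in TN-783, 12.8 to 25 in vehicle and 17 to 26.5 in lean mice. For Dlx1 3 of 6 vehicle libraries, and for Dlx2 5 of 6, were below every lean library. Dlx6 had 7.55, 12.8 and 14.5 CPM in TN-783 mice, 8.34, 10.6 and 13.2 in vehicle mice and 11.5, 16.2 and 18.2 in lean mice. Its 6 TN-783 and its 6 vehicle values were all below the lean median, with the lowest lean value, 11.5 CPM, in lean replicate 6. Dlx5 and Lhx6, a gene of GABAergic neurons from the ventral telencephalon, had 23 and 34 counts over the TN-783 group, 18 and 37 over the vehicle group and 42 and 34 over the lean group.

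Meis2, a homeobox gene of striatal, thalamic and other forebrain neurons, ran the other way. Its lowest, median and highest values were 33.9, 42.3 and 65.9 CPM in TN-783 mice, 36.3, 48.6 and 71.3 in vehicle mice and 21.7, 34.1 and 44.7 in lean mice. Every vehicle library exceeded the lean median and the highest values were in vehicle replicates 5 and 6. Markers of the striatum (7 genes), a neighbouring region that uses Meis2, summed to 68.7 to 91 CPM in TN-783, 79.4 to 113 in vehicle and 70.1 to 99.6 in lean libraries. In vehicle replicates 5 and 6 the sum was 81.6 and 113 CPM. Of these markers, Drd2 reached 29.1 CPM in vehicle mice and at most 7.4 CPM in TN-783 and 11.3 CPM in lean mice. The part of these markers in the Meis2 level was not tested.

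Genes of thalamic, septal and preoptic neighbours were among the most abundant. Tcf7l2, the Wnt effector that specifies thalamus and habenula, had lowest, median and highest values of 51.9, 66.5 and 80.4 CPM in TN-783 mice, 51.8, 89.9 and 149 in vehicle mice and 50.4, 64.4 and 132 in lean mice. The 2 highest libraries were vehicle replicate 6, at 149 CPM, and lean replicate 5, at 132 CPM. In these 2 libraries the sum of 8 thalamus and habenula markers was also the highest, at 68.5 and 65 CPM against 31.6 to 58 CPM in the other 16, and their part in the Tcf7l2 level was not tested. Prox1, a homeobox gene of the dentate gyrus and thalamus, had 31.4, 54.4 and 60.2 CPM in TN-783 mice, 34.3, 47 and 56.4 in vehicle mice and 41.6, 67.8 and 74.4 in lean mice. Lean replicate 6 was the lowest lean library for Prox1, at 41.6 CPM, and the others were at 56 CPM or above.

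Zic1, a zinc-finger gene of the septum and preoptic area, was at 51.5 to 105 CPM in TN-783 mice, 79.5 to 104 in vehicle mice and 69.9 to 142 in lean mice. Rorb, a nuclear receptor gene of thalamus and cortex that also acts in the circadian clock, was the steadiest tested gene, at 75.3 to 92.5 CPM in TN-783, 74.7 to 88.7 in vehicle and 66.8 to 90.3 in lean mice. Its coefficient of variation within groups was 8.68%, with a variance 1.38 times that of counting alone. The same ratio was 21 for Tcf7l2, 11 for Zic1, 8.72 for Six6, 6.9 for Six3 and 6.43 for Meis2, so that libraries of 1 group differed in these genes by far more than counting error. It was 0.98 for Lhx2 and 1.02 for Dlx6, so the size of their spread was near that of counting. A ratio of that size does not show that counting alone made the spread. Deviations of Dlx6 from group means correlated with those of Prox1 (r = 0.799) and Dlx1 (r = 0.718). Both values are among the highest over all pairs of tested genes, and 0.799 is the highest of the 257 pairs from different region groups. As values from the top of a ranking they were not tested. Zic2 had 24, 39 and 34 counts over the TN-783, vehicle and lean groups.

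The 3 pallial genes mark excitatory neurons of cortex and hippocampus and did not pass the filter. Their totals over all libraries were 57 counts for Fezf2, 136 for Tbr1 and 167 for Neurod6. Fezf2, Tbr1 and Neurod6 together summed to 5.86 to 9.14 CPM in TN-783 mice, 4.34 to 18.5 in vehicle mice and 2.71 to 9.77 in lean mice. The highest sums were 18.5 CPM in vehicle replicate 5 and 14.8 CPM in vehicle replicate 6. The pallial vesicular glutamate transporter Slc17a7 was at 14.4 and 20.4 CPM in these 2 libraries and at 0.494 to 9.47 CPM in the other 16. The 6 cortex and hippocampus markers, Slc17a7 among them, summed to 156 to 246 CPM in TN-783, 149 to 316 in vehicle and 142 to 304 in lean libraries. Nrgn made up most of that sum, with a median of 176 CPM over all libraries and means of 175 CPM in TN-783, 175 CPM in vehicle and 219 CPM in lean mice (vehicle versus lean log2 difference -0.32, SE 0.18, edgeR adjusted p = 0.517). Slc17a7, which did not pass the filter, averaged 3.62 CPM in TN-783, 8.54 CPM in vehicle and 2.55 CPM in lean mice. Neurod2 averaged 5.23 CPM in TN-783, 5.97 CPM in vehicle and 3.65 CPM in lean mice (vehicle versus lean 0.80, SE 0.39, edgeR adjusted p = 0.461). Emx1 was at 0 in 13 of 18 libraries.

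**Figure D2:**
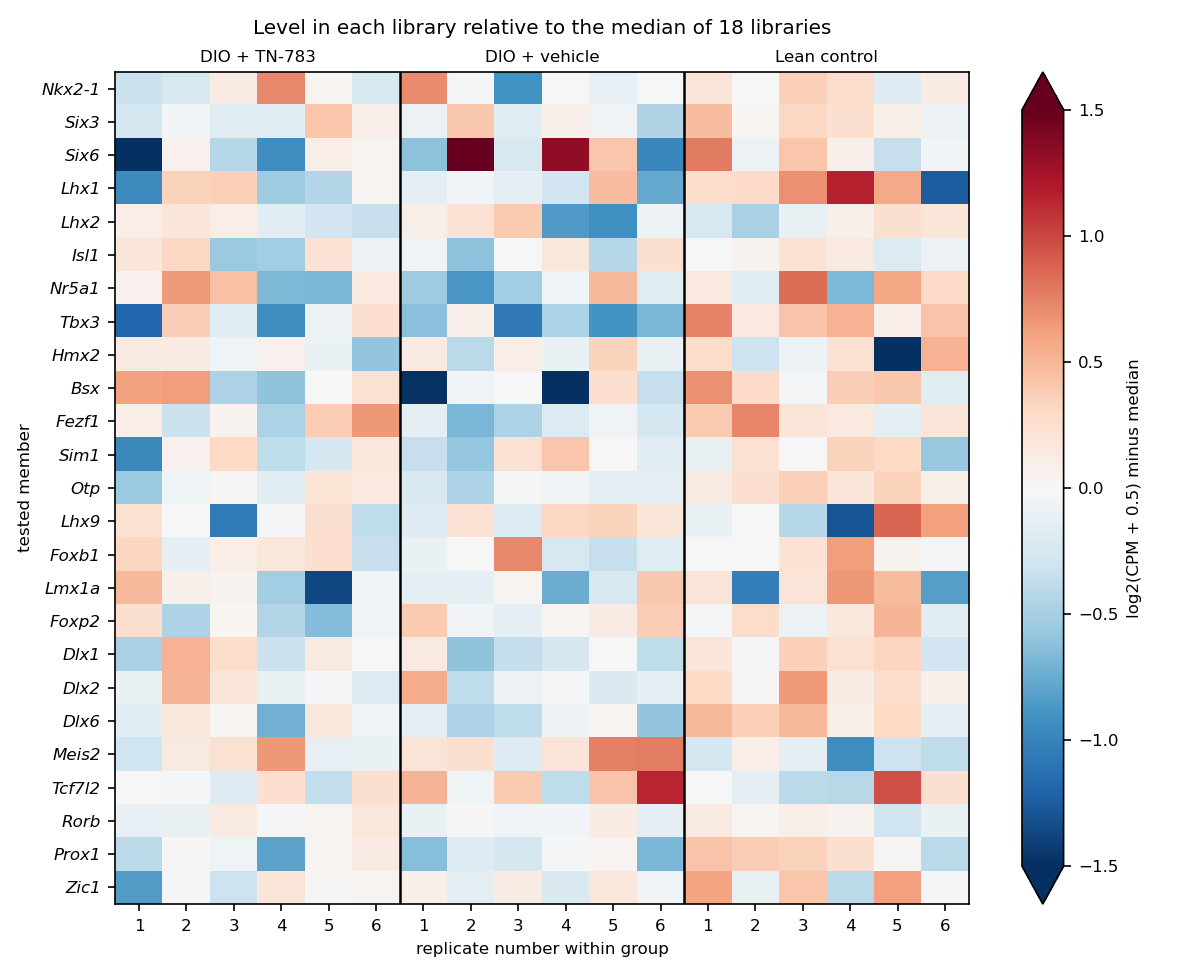
Each tested gene (rows) in each library (columns, by replicate number within group), coloured by log2(CPM + 0.5) minus the gene's median over 18 libraries, with colours saturating at 1.5 in either direction. TN-783 replicate 1 is low for Six6, Tbx3, Sim1, Otp and Zic1, and vehicle replicates 2 and 4 are high for Six6.

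Single libraries had profiles of their own. TN-783 replicate 1 was the lowest of 18 libraries for 5 of the 25 tested genes (Six6, Tbx3, Sim1, Otp and Zic1) and the highest for 0. Vehicle replicate 2 was the lowest for another 5 (Isl1, Nr5a1, Fezf1, Dlx1 and Dlx2). Lean replicates 1 and 3 were each the highest for 4 genes, Six3, Tbx3, Bsx and Prox1 in replicate 1 and Nr5a1, Otp, Dlx2 and Dlx6 in replicate 3. With 25 genes and 18 libraries, a library would be the highest for 1.39 genes on average. Lean replicate 5 combined the highest Lhx9, Foxp2 and Zic1 with the lowest Hmx2 and Rorb.

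Obesity and its diet were examined by setting vehicle mice against lean mice. The vehicle mice also differed from the lean mice in their dosing by gavage, so obesity, diet and gavage cannot be told apart here. None of the 25 tested genes was called, that is, reached an adjusted p below 0.05 (edgeR quasi-likelihood test, Benjamini-Hochberg adjustment over 11835 genes), where 1 gene of all tested, or 0.00845%, was called. DESeq2 gave an adjusted p for 19 members and called 0 of them, beside 20 of 9164 genes. At an unadjusted p below 0.05, 7 genes were lower in vehicle mice and 1 was higher, beside 5.55% and 5.32% of all genes. Most of the group pointed down, with 19 of 25 lower and a median log2 difference of -0.16, while 48.9% of all genes were lower, 51.1% were higher and their median was 0.01. The vehicle and lean values did not overlap for 2 genes, Tbx3 and Otp, both lower in vehicle mice, beside 0.228% of all tested genes. In the other direction it was 0 members, beside 0.161% of all.

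Tbx3 averaged 7.08 ± 2.28 CPM in vehicle mice and 14.4 ± 2.49 CPM in lean mice (SD, n = 6), a log2 difference of -0.99 (SE 0.24, edgeR adjusted p = 0.207). For Otp the means were 45.3 ± 4.87 CPM in vehicle mice and 59.9 ± 4.69 CPM in lean mice, with a log2 difference of -0.41 (SE 0.12, edgeR adjusted p = 0.255). Dlx6 had the third smallest p among the lower genes, at 10.7 ± 1.89 CPM in vehicle mice and 15.6 ± 2.65 CPM in lean mice, a log2 difference of -0.56 (SE 0.17, edgeR adjusted p = 0.301). All 6 vehicle libraries were below the lean median for these 3 genes. Fezf1 (-0.60, SE 0.19), Bsx (-0.68, SE 0.30), Dlx1 (-0.38, SE 0.16) and Prox1 (-0.47, SE 0.16), named after their values were seen, were the other 4 with an unadjusted p below 0.05, and their edgeR adjusted p lay between 0.301 and 0.430. With RNA integrity as a covariate the Prox1 difference was -0.28 and was not called.

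In the other direction, Meis2 averaged 53.9 ± 14.1 CPM in vehicle mice and 34 ± 7.52 CPM in lean mice, a log2 difference of 0.66 (SE 0.18, edgeR adjusted p = 0.240), with 6 of 6 vehicle libraries above the lean median. Six6 was at 13.3 ± 9.99 CPM in vehicle mice and 9.96 ± 3.1 CPM in lean mice, a log2 difference of 0.48 (SE 0.39, edgeR adjusted p = 0.639), which turned to -0.44 without the vehicle libraries with pituitary transcripts and was 0.09 without vehicle replicate 2 alone. Tcf7l2 averaged 90.2 ± 33.4 CPM in vehicle mice and 73.6 ± 30.6 CPM in lean mice, a log2 difference of 0.30 (SE 0.24, edgeR adjusted p = 0.651), which was 0.09 without vehicle replicate 6 and 0.54 without lean replicate 5. The Six6 difference thus rests on the vehicle libraries with pituitary transcripts. For Tcf7l2, 5 of 6 vehicle libraries were above the lean median, and leaving out single libraries moved the difference in either direction.

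Calls in this comparison depended on the filter on low counts. Without it and with all 18 libraries, Tbx3 (edgeR adjusted p = 0.00696) and Meis2 (adjusted p = 0.00338) were called, beside 126 of 37272 genes. Calls depended as well on lean replicate 6, the library with the highest RNA integrity score (10). The TN-783 and vehicle libraries at the same end of the first principal component were kept. Without lean replicate 6, 4 of 26 tested members were called, all lower in vehicle mice, beside 1.25% of 11984 genes called lower and 1.64% called higher. These were Tbx3 (log2 difference -0.98, SE 0.25, edgeR adjusted p = 0.0341), Otp (-0.44, SE 0.12, adjusted p = 0.0457), Dlx6 (-0.63, SE 0.18, adjusted p = 0.0485) and Prox1 (-0.56, SE 0.15, adjusted p = 0.0398). In the fit of all libraries these differences were of similar size, and for Prox1 the value was nearer 0, at -0.28, with RNA integrity as a covariate. Meis2 was at 0.64 (SE 0.19, edgeR adjusted p = 0.0593). Neurod6, which did not pass the filter with all 18 libraries, had a log2 difference of 1.27 (SE 0.38, edgeR adjusted p = 0.0555). In the same fit the oligodendrocyte marker Mobp was called higher in vehicle mice (log2 difference 0.63, SE 0.14, edgeR adjusted p = 0.0278), and Mbp (1.00, SE 0.27, adjusted p = 0.0521) and Mog (0.26, SE 0.18, adjusted p = 0.400) were not called. Their sums were 1860 to 5400 CPM in vehicle libraries and 1480 to 1900 CPM in lean libraries without replicate 6, and their part in the differences of the 4 members was not tested. The 5 general neuron markers summed to 2760 to 3530 CPM in vehicle and 2900 to 3330 CPM in lean libraries.

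**Figure D3:**
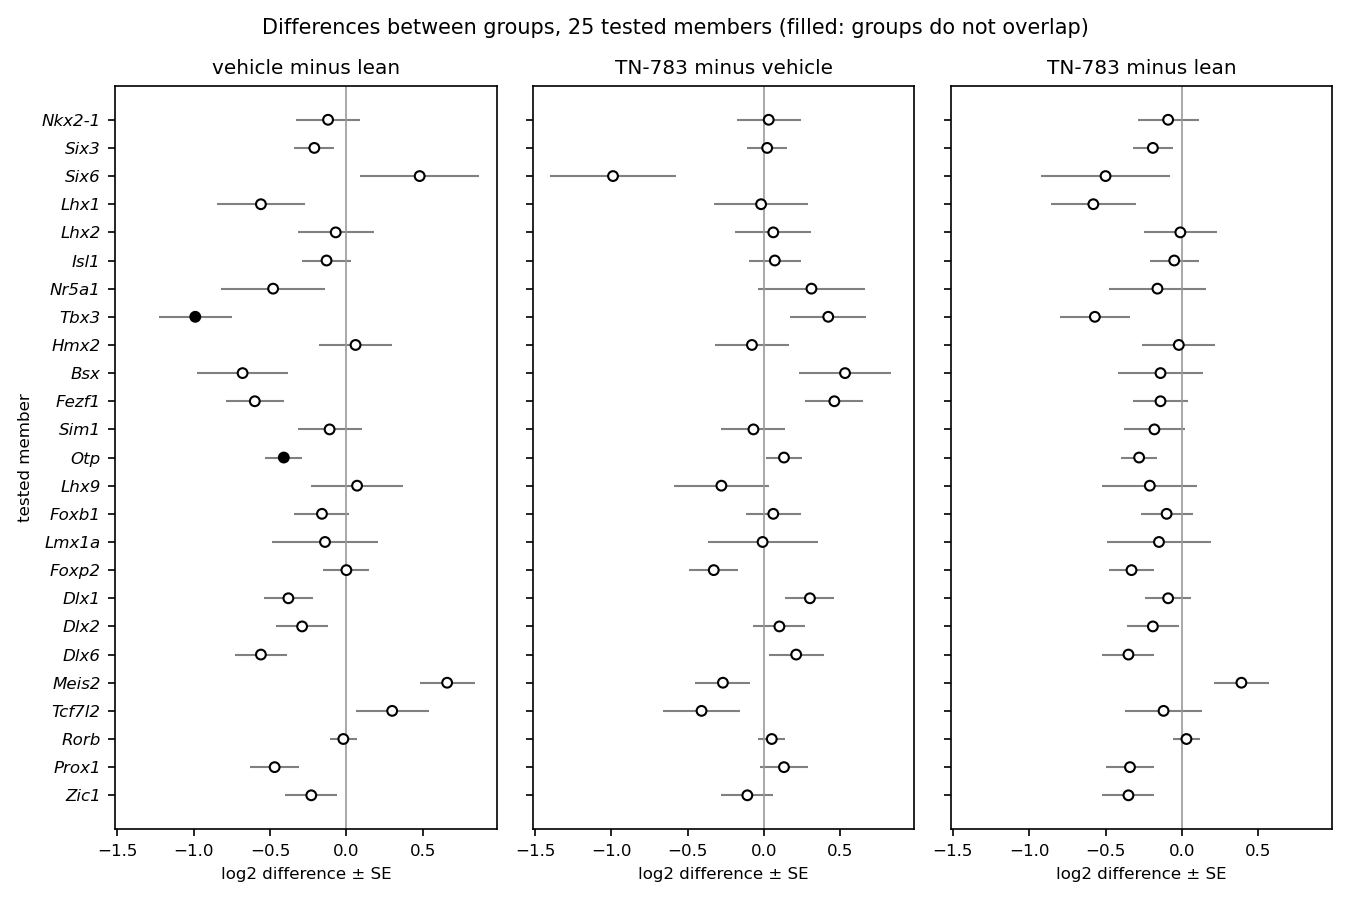
Log2 differences of the 25 tested genes (x axis, ± SE from the edgeR fit), vehicle minus lean on the left, TN-783 minus vehicle in the middle and TN-783 minus lean on the right. Filled points mark Tbx3 and Otp, whose vehicle and lean values did not overlap. In the left panel 19 of 25 points lie below 0.

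By role, the 6 tested tuberal genes had a median log2 difference of -0.54 between vehicle and lean mice, with 5 lower and 3 of them at an unadjusted p below 0.05. The 4 tested GABAergic genes followed at -0.34, with 3 lower, 2 of them at that level, and with Meis2 higher (0.66) at that level. Over all tested genes 48.9% were lower in vehicle mice. At an unadjusted p below 0.05 (edgeR), 5.55% of all were lower and 5.32% higher. The medians were -0.12 for the 5 tested pan-hypothalamic and suprachiasmatic genes, -0.11 for the 3 paraventricular and lateral genes, -0.14 for the 3 tested mammillary and subthalamic genes and -0.13 for the 4 tested neighbours. These medians describe few genes each and were not tested against each other.

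Other transcription factors of the hypothalamus were listed for comparison. Of 23, 15 were tested and 0 were called by edgeR, with 2 higher and 0 lower at an unadjusted p below 0.05, beside 5.32% and 5.55% of all genes. In direction 9 were higher and 6 lower, with a median log2 difference of 0.02. Pou3f3, a POU-domain gene, averaged 141 CPM in vehicle and 111 CPM in lean mice (log2 difference 0.35, SE 0.11, edgeR adjusted p = 0.314). Sp9, a zinc-finger gene of GABAergic neurons, averaged 4.38 CPM in vehicle and 2.61 CPM in lean mice (0.73, SE 0.31, edgeR adjusted p = 0.412). Of 16 peptide and enzyme genes that mark nuclei, 13 were tested and 0 were called, with 2 higher and 5 lower at an unadjusted p below 0.05, against the same background. In direction 4 were higher and 9 lower, with a median log2 difference of -0.34. Of the 2 higher genes, 1 was Pomc (5.62, SE 1.53, edgeR adjusted p = 0.274), at 6940 and 3280 CPM in vehicle replicates 2 and 4, the libraries with pituitary transcripts. Pmch, the melanin-concentrating hormone gene of the lateral hypothalamus, averaged 177 CPM in vehicle and 112 CPM in lean mice (0.66, SE 0.13, edgeR adjusted p = 0.0879), and Hdc, the histamine enzyme gene of the tuberomammillary nucleus, 22 CPM in vehicle and 37.5 CPM in lean mice (-0.75, SE 0.19, adjusted p = 0.207).

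The effect of the drug was examined by setting TN-783 mice against vehicle mice. No member was called by edgeR, beside 0% of all genes, and DESeq2 called 0 of 36 members and 0 of 37254 genes. By overlap, 0 members had groups that did not overlap, beside 0.0338% of all genes with TN-783 higher and 0.0253% with TN-783 lower. At an unadjusted p below 0.05, 1 member was higher and 2 were lower, beside 1.02% and 1.59% of all genes. In direction, 15 were higher and 10 lower, beside 48.7% and 51.3% of all genes, with a median log2 difference of 0.05 beside 0 over all genes.

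Fezf1 averaged 21.4 ± 6.42 CPM in TN-783 mice and 16 ± 2.51 CPM in vehicle mice (log2 difference 0.46, SE 0.19), which was 0.30 without TN-783 replicate 6. Dlx1 averaged 44.5 ± 11.5 CPM in TN-783 mice and 36.6 ± 7.06 CPM in vehicle mice (0.30, SE 0.16), and 0.18 was its difference without TN-783 replicate 2. Bsx averaged 6.66 ± 2.48 CPM in TN-783 mice and 4.56 ± 2.28 CPM in vehicle mice (0.53, SE 0.30). For each of the 3 genes, 4 of 6 TN-783 libraries were above the vehicle median, and the edgeR adjusted p was 1.00.

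Lower in TN-783 mice was Six6, at 6.76 ± 2.89 CPM in TN-783 mice and 13.3 ± 9.99 CPM in vehicle mice (log2 difference -0.99, SE 0.41). Without the vehicle libraries with pituitary transcripts its difference was -0.07. Foxp2 averaged 25.8 ± 6.27 CPM in TN-783 mice and 32.6 ± 5.15 CPM in vehicle mice (-0.33, SE 0.16), with 5 of 6 TN-783 libraries below the vehicle median. Tcf7l2 averaged 67.3 ± 11.2 CPM in TN-783 mice and 90.2 ± 33.4 CPM in vehicle mice (-0.41, SE 0.25), and its difference was -0.21 without vehicle replicate 6 and -0.66 once the 2 libraries with pituitary transcripts were left out. The edgeR adjusted p of all 3 was 1.00.

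Tbx3 and Otp, the genes separated between vehicle and lean mice, had log2 differences of 0.42 (SE 0.25) and 0.13 (SE 0.12) between TN-783 and vehicle mice, both with an edgeR adjusted p of 1.00. These comparisons share the vehicle libraries. Among the other listed genes, Nr4a2 (-0.25, SE 0.21) and Nhlh2 (0.24, SE 0.21) had the smallest p of the transcription factors, and Agrp (1.11, SE 0.43) and Pomc (-4.88, SE 1.47) of the peptides, none of them called (edgeR adjusted p = 1.00). Pomc, which the pituitary also makes, was at 6940 and 3280 CPM in vehicle replicates 2 and 4 while the other 16 libraries had at most 156 CPM, and its difference was 1.41 without those 2 libraries. Nr4a2 was at -0.13 and Nhlh2 at 0.04 without them.

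TN-783 mice were also set against lean mice, a comparison that shares libraries with both of the others. Obesity, diet, gavage and drug differ together in it and cannot be told apart. By edgeR 0 members were called, beside 0% of all genes. DESeq2 gave an adjusted p for only 8 members and called 0 of them, beside 11 of 4254 genes. By overlap, 0 members had groups that did not overlap, beside 0.22% of all genes with TN-783 higher and 0.186% with TN-783 lower. Of 25 members, 23 were lower in TN-783 mice, with a median log2 difference of -0.16 beside 0 over all genes, of which 50.9% were lower and 49.1% higher. At an unadjusted p below 0.05, 6 were lower and 1 was higher, beside 4.35% and 3.81% of all genes.

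Tbx3 averaged 9.39 ± 3.85 CPM in TN-783 mice and 14.4 ± 2.49 CPM in lean mice (log2 difference -0.57, SE 0.23), Otp 49.2 ± 8.75 CPM in TN-783 mice and 59.9 ± 4.69 CPM in lean mice (-0.28, SE 0.12), and Prox1 49.9 ± 11.1 CPM in TN-783 mice and 63.2 ± 12.4 CPM in lean mice (-0.34, SE 0.16). For all 3, each of the 6 TN-783 libraries was below the lean median, and the edgeR adjusted p was 0.611. Foxp2 (-0.33, SE 0.15), Dlx6 (-0.35, SE 0.17) and Zic1 (-0.35, SE 0.17), named after their values were seen, had the same adjusted p. Meis2 was again higher, at 45.2 ± 11.4 CPM in TN-783 mice and 34 ± 7.52 CPM in lean mice (0.39, SE 0.18, edgeR adjusted p = 0.611), and 0.25 without TN-783 replicate 4. Rorb was the other gene with a positive difference, at 0.03 (SE 0.09, edgeR adjusted p = 0.949), and -0.01 without TN-783 replicate 6 and -0.03 without lean replicate 5. Of the other listed genes, the smallest p belonged to Pou3f3 (0.31, SE 0.11), Sp9 (0.80, SE 0.30), Pmch (0.42, SE 0.13) and Oxt (-0.91, SE 0.29), with edgeR adjusted p between 0.567 and 0.611.

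Pairs of genes were compared across the 18 libraries to see whether the dissections varied in them together. Some pairs share cells or a nucleus, and others join different regions, such as Foxb1 with Tcf7l2 and Foxb1 with Sim1. Of 28 listed pairs, 19 had both genes above the filter, and p-values are from 100000 permutations, adjusted over the 19. Of these, 3 pairs had an adjusted p below 0.05 by Pearson's r and 2 by Spearman's rho.

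Dlx1 and Dlx2, neighbours on chromosome 2 that are transcribed towards each other, had r = 0.764 (permutation p = 0.00027, adjusted 0.00503) and rho = 0.767 (p = 0.00046, adjusted 0.00437). Without the 2 libraries farthest from the median of Dlx1, r was 0.654. Within groups it was 0.784 in TN-783, 0.748 in vehicle and 0.682 in lean mice. Six3 and Six6, homeobox genes of the same family, had r = 0.726 (permutation p = 0.00053, adjusted 0.00503) and rho = 0.792 (p = 0.0001, adjusted 0.0019). Their r was 0.677 without the 2 libraries farthest from the median of Six3 and 0.761 once the 2 libraries with pituitary transcripts were left out. Within groups it was 0.735 in TN-783, 0.905 in vehicle and 0.858 in lean mice. Sim1 and Otp had r = 0.643 (permutation p = 0.00373, adjusted 0.0236) and rho = 0.527 (p = 0.0261, adjusted 0.124). Their r was 0.306 without TN-783 replicate 1 and vehicle replicate 2, and 0.762 over deviations from group means. Leaving out the libraries farthest in Sim1 narrows its range, which by itself can lower r. The value of 0.306 thus cannot decide whether the relation rests on those 2 libraries. Within groups r was 0.78 in TN-783 and 0.924 in vehicle mice, and each of these groups holds 1 of the 2 libraries. In lean mice, which hold neither, r was 0.57 over 6 libraries. These values within groups were not tested. The libraries share their depth and their dissection within each pair of values.

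**Figure D4:**
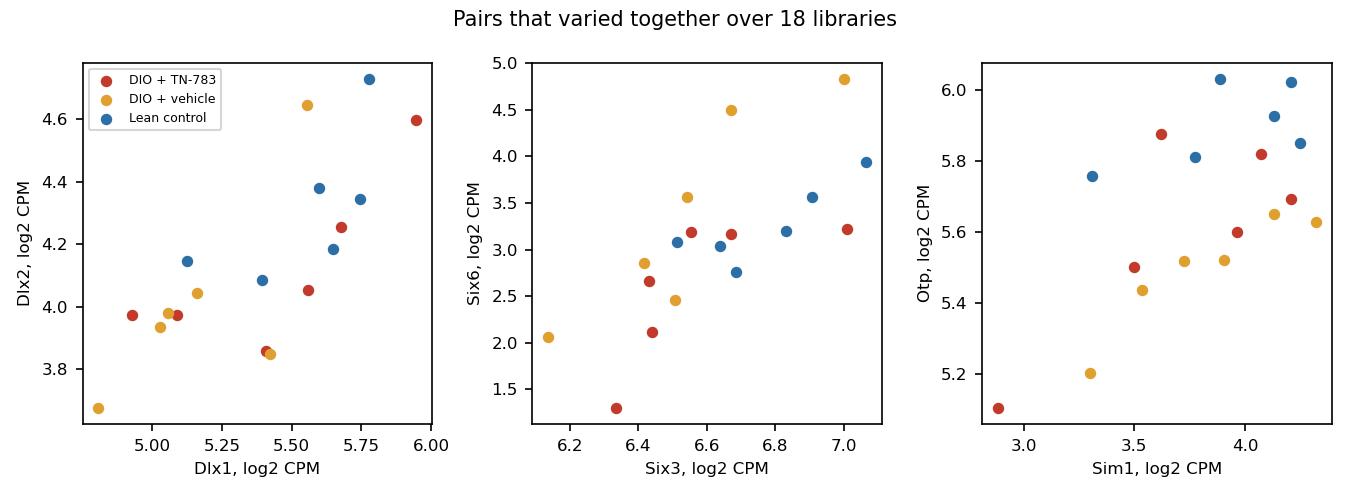
The 3 pairs with an adjusted permutation p below 0.05 by Pearson's r, each point 1 library, with log2 CPM on both axes. Dlx1 and Dlx2 are on the left, Six3 and Six6 in the middle, with vehicle replicates 2 and 4 at the top for Six6, and Sim1 and Otp on the right, with TN-783 replicate 1 at the lower left.

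The promoters of the 2 pairs with an adjusted permutation p below 0.05 by both r and rho are shown because their genes varied together. RefSeq promoters of the GRCm38.p6 assembly, 250 bases before to 50 after the start site, are given 5′ to 3′ on the gene's strand, with the letters CCAAT, or ATTGG where they are on the other strand, in capitals. This build differs from GRCm39, which the submitters' processing notes name for the counts. The Dlx1 window is chr2:71529195-71529494 on the plus strand and that of Dlx2 chr2:71546705-71547004 on the minus strand. Those of Six3 and Six6 are chr17:85620584-85620883 and chr12:72939632-72939931, both on the plus strand.
Dlx1: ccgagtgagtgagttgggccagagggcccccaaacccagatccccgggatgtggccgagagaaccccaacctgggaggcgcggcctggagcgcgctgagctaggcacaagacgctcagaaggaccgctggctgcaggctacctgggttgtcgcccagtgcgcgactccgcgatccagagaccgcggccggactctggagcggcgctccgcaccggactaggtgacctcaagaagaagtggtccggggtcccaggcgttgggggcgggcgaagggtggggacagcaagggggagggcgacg
Dlx2: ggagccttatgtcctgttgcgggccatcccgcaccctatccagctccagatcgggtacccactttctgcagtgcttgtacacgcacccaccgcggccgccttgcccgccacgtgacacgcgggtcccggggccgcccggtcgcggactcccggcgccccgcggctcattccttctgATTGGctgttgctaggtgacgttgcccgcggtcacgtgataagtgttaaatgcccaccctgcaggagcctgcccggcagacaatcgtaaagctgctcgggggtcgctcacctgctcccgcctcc
Six3: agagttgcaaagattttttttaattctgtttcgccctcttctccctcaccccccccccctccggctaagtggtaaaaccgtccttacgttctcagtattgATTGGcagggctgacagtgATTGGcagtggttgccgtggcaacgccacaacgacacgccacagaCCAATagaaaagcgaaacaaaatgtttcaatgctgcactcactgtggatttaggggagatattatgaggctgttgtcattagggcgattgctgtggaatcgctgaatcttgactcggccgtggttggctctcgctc
Six6: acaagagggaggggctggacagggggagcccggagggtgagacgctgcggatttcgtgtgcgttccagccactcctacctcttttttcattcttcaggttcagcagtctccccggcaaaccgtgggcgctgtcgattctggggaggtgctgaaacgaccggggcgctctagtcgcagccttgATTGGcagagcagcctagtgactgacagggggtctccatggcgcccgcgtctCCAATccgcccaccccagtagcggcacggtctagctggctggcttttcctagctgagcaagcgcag

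Dlx1 has 0 such matches, Dlx2 has 1, Six3 has 3 and Six6 has 2. Of the 36 genes, 29 matched the promoter table, with 37 promoters among them. CCAAT on either strand was in 21 of these, or 56.8%, beside 37.4% of 32851 promoters in the table, and this motif was chosen after the sequences were read. The homeodomain core TAATTA, which reads the same on both strands, was in 2 of the 37, or 5.41%, beside 5.29% of all. The median GC content was 59.3% in the promoters of these genes and 52.7% in all. A match describes the letters of the window only.

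The other 16 pairs did not pass, among them Otp with the peptide gene Trh (r = 0.586, adjusted permutation p = 0.0508), Tcf7l2 with Rorb (r = -0.556, adjusted p = 0.0608) and Tcf7l2 with the thalamic marker Prkcd (r = 0.46, adjusted p = 0.148). Nr5a1 and Fezf1, both of the ventromedial nucleus, had r = 0.255 (adjusted permutation p = 0.526), and Foxb1 and Lmx1a r = 0.222 (adjusted p = 0.551). As a description over all tested members, the median correlation of deviations from group means was 0.052 over the 43 pairs of 1 region group and 0.014 over the 257 pairs of different groups. The range was -0.549 to 0.826 within region groups and -0.669 to 0.799 between them.

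Of the 36 genes, 10 are overlapped by a gene on the opposite strand with at least 10 counts in all in GENCODE M21. Use of strand in the counting is not stated. The largest totals were those of Fgfr2, which had 1317 counts and overlaps Hmx2 and Hmx3, Six3os1 with 797 beside 4360 for Six3, B230323A14Rik with 457 beside 874 for Foxb1 and Zic4 with 392 beside 4088 for Zic1. Dlx1as had 186 counts beside 1834 for Dlx1, Dlx6os1 150 beside 561 for Dlx6, Prox1os 61 beside 2347 for Prox1, and Tbx3os1 44 beside 459 for Tbx3. Six6 had 444 counts and its overlapping gene 203. The overlap is of whole gene bodies, and whether reads of these genes entered the counts of the members was not tested. The totals do not measure how uncertain the member levels are.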

How the data were processed

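The 18 libraries were made from poly(A) RNA with a 3' kit, molecular identifiers and 18 PCR cycles (per the labels). Tools named in the submitters' processing notes, without roles, are R 4.5.1, edgeR 4.6.2, Salmon 1.10.1 and STAR 2.7.9a, and the build named is GRCm39. How identifiers were collapsed is not stated. Deposited by the authors were estimated counts, 12.0% of values not whole, a scaling ratio per library (0.936 to 1.08) and log2 CPM, which the counts and ratios gave back to within 8.88e-15. The deposited RNA integrity score was 9.6 to 9.7 in TN-783, 9.5 to 9.9 in vehicle and 9.4 to 10 in lean samples.

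The counts were rounded, where the design had assumed whole counts, and filtered with filterByExpr (minimum count 10), leaving 11835 genes. All 18 libraries entered 1 fit of 3 groups (edgeR 4.0.16 in R 4.3.3, TMM scaling, robust quasi-likelihood, 15 residual degrees of freedom), adjusted over all tested genes with a threshold of 0.05. CPM uses TMM-scaled library sizes; relations use log2 CPM with a prior count of 2. Standard errors are the log2 difference over the square root of F. The edgeR script was tested on simulated data.

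The members and lists were chosen with earlier results of these data known. Statistics are printed for members called, for the 3 members per direction with the smallest p, for members without overlap and for 2 genes of each other list. Alternatives were other scalings and filters, DESeq2 1.42.0, the 2 groups alone, a replicate block, RNA integrity and leaving out libraries; leaving out lean replicate 6 with the 2 pituitary libraries was added after seeing the data. P-values refer to the spread between mice, which the labels call independent samples. Limits from counting cover counting error only. Of the genes listed for comparison, 2 are not reported here and were left out of their lists.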

Additional observations from a re-analysis of the deposited data

Results flagged for a closer look

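In groups of 6 libraries, a highest or lowest value was singled out where its gap to the next value, divided by the range of the group, exceeded the 95% critical value of Dixon's test. Of 75 groups (25 tested genes in 3 groups) 5 exceeded it, and chance gives about 1 in 20. All 5 were high values. Nkx2-1, the ventral hypothalamus gene, was at 21.6 CPM in TN-783 replicate 4 and at 10.3 to 14.2 CPM in the other TN-783 libraries. Foxb1, the mammillary gene, was at 32.6 CPM in vehicle replicate 3 (15.3 to 19.7 CPM in the other vehicle libraries) and at 30.7 CPM in lean replicate 4 (19.3 to 22.9 CPM in the other lean libraries). Dlx2 was at 25 CPM in vehicle replicate 1 and at 12.8 to 16.5 CPM in the others. Tcf7l2, the thalamic gene, was at 132 CPM in lean replicate 5 and at 50.4 to 79.6 CPM in the other lean libraries.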

How the results depend on the processing

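No member was called in TN-783 versus vehicle or TN-783 versus lean under any alternative run, though DESeq2 gave an adjusted p for only 8 members in TN-783 versus lean and 19 in vehicle versus lean. In vehicle versus lean 2 members were called with no filter on low counts, Tbx3 (log2 difference -1.01, edgeR adjusted p = 0.00696) and Meis2 (0.64, adjusted p = 0.00338), and 2 without lean replicate 6 and both vehicle libraries with pituitary transcripts, Tbx3 (-1.28, adjusted p = 0.0285) and Neurod6 (1.47, adjusted p = 0.0433). Leaving out single libraries gave 0 to 4 members, with all 4 from the fit without lean replicate 6. Over all alternatives Tbx3 ranged from -1.28 to -0.91 and Otp from -0.44 to -0.35.

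Over all genes, vehicle versus lean gave 126 calls with no filter, 0 with at least 1 CPM in 6 libraries, 20 with DESeq2, 0 with the 2 groups alone, 0 without the vehicle libraries with pituitary transcripts, 170 without these and lean replicate 6, and 0 to 346 without single libraries. TN-783 versus vehicle gave 6 with no filter. TN-783 versus lean gave 27 with no filter, 11 with DESeq2, 5 with the 2 groups alone, 1 with the replicate block, 2 with RNA integrity, 28 without lean replicate 6 and the vehicle libraries with pituitary transcripts, and 0 to 5 without single libraries. The cause was not tested.

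Signs reversed for Six6 in vehicle versus lean (-0.44 without the vehicle libraries with pituitary transcripts, -0.47 without lean replicate 6 as well), for Pomc in TN-783 versus vehicle (1.41 and 1.42 in the same fits) and for Rorb in TN-783 versus lean (-0.03 to 0.06 without single libraries). The replicate numbers did not pair the samples: of 18 same-numbered pairs, whose deviations correlated at -0.4 to 0.385, 3 exceeded 0.1. With the replicate block the count of relations past the threshold was 5, against 3, and 0 members were called. Prox1 in vehicle versus lean was -0.28 with RNA integrity as a covariate. Tested members had 3 to 401 counts per library, which limits the lowest of them.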
